A study of Arabidopsis thaliana with 12 samples.

Results

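The 8 genes described here encode the core of the 3 protein kinase systems that set the rate of cytosolic protein synthesis in plants: TOR, RAPTOR1B, LST8-1, S6K1 and S6K2 of the TOR pathway, KIN10 and KIN11 of SnRK1, and GCN2. They were chosen by their locus identifiers, not by a measured value, though with earlier results of these data known. All 8 were found among the 28775 genes counted, of which 26789 are protein-coding. Counts came from whole rosettes of Arabidopsis thaliana, genotype Col-0, grown on soil to an age of 3 weeks and then moved to dim light of 8 µmol photons per m2 and second for 10 days. Plants of the high-light groups (HL) then received 800 µmol photons per m2 and second for 10 min, and plants of the low-light groups (LL) stayed at 8. Ribosome-protected fragments (RPF), the stretches of mRNA that a ribosome shields from nuclease, were sequenced beside total RNA depleted of rRNA. The 12 libraries formed 4 groups of 3: RPF HL, RPF LL, total RNA HL and total RNA LL. The series concerns control of cytosolic translation by the plastid during high-light acclimation, and the comparisons below ask whether the genes for the translation kinases changed in transcript level or in footprints within those 10 min, and how many footprints each carried for its transcript level.

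TOR is a large kinase that, bound to RAPTOR and LST8, promotes translation and growth when sugar, nutrients and light are plentiful, and it phosphorylates S6K, whose best known target is the ribosomal protein RPS6. SnRK1, the plant relative of yeast SNF1 and animal AMPK, is active when energy is short and turns on starvation genes while holding back TOR. GCN2 binds uncharged tRNA and phosphorylates the alpha subunit of the initiation factor eIF2, which lowers initiation, and in Arabidopsis it is known to respond to excess light. All of these kinases are regulated mainly through phosphorylation and binding partners, and neither RPF nor total RNA measures kinase activity.

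Positions are TAIR10. TOR (AT1G50030), the catalytic kinase, lies on chromosome 1 from 18522441 to 18539995 and spans 17555 bases. The other members are all on chromosome 3. RAPTOR1B (AT3G08850), which brings substrates to TOR, lies at 2686583 to 2695300, and LST8-1 (AT3G18140), a WD40-repeat partner of the TOR kinase domain, at 6212596 to 6214785. S6K1 (AT3G08730, 2651447 to 2654212) and S6K2 (AT3G08720, 2648509 to 2651160) are tandem neighbours on the same strand, 286 bases apart. KIN10 (AT3G01090, 31181 to 34597) and KIN11 (AT3G29160, 11128625 to 11132076) are the alternative catalytic subunits of SnRK1. GCN2 (AT3G59410) lies at 21950188 to 21959266. Each value counts fragments over the whole gene span, so exons, introns and untranslated regions are counted together, and no member overlaps another gene.

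The libraries held 1563427 to 17312840 counts in RPF and 2592499 to 16660558 in total RNA, of which protein-coding genes took 1162389 to 2119227 and 2438332 to 16053563. In the RPF libraries numbered 1, rRNA took 84.6% (HL) and 82.7% (LL) of all counts, against 4.42% to 8.66% in the other RPF libraries. Levels are given as CPM, counts per 1000000 of the scaled library size. The 3 markers of green leaf summed to 7009 to 12621 CPM in RPF HL and 5342 to 6702 CPM in RPF LL. In total RNA they summed to 12766.5 to 13367.5 CPM in HL and 13701 to 15395 CPM in LL. The sums were thus higher in HL in RPF and lower in HL in total RNA, with no overlap. Taken singly, only the marker CAB1 separated in RPF (4282 to 8138 CPM in HL, 2934 to 3703 CPM in LL). HL and LL overlapped for the other markers, RBCS1A and CA1, in RPF and for all 3 in total RNA. The 2 root markers summed to 38.1 to 67.2 CPM over all libraries and the 3 flower markers to at most 1.01 CPM, with 2 of the 3 at 0 throughout RPF, so the leaf markers were by far the highest, as the rosette label has it. Summed marker levels of guard cells (10.1 to 22.9 CPM over all libraries), of epidermis and trichomes (45.3 to 84.7 CPM) and of phloem (52.6 to 163 CPM) overlapped between HL and LL in both kinds of library. In such whole-rosette samples, fewer cells of a type and less RNA per cell cannot be told apart.

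The kinase genes made up a small part of the counts. Together the 8 members took 0.0222%, 0.0331% and 0.0314% of protein-coding counts in the RPF HL libraries, against 0.0379%, 0.0415% and 0.0399% in the RPF LL libraries. In total RNA the shares were 0.0140%, 0.0166% and 0.0278% in HL, against 0.0180%, 0.0176% and 0.0244% in LL. Each RPF HL share lay below each RPF LL share, while the total RNA shares overlapped. These shares are of unscaled counts, and TOR and RAPTOR1B gave most of them in RPF. In RPF HL 1 they had 149 and 127 of the 469 counts of all 8 members, and in RPF LL 1 they had 269 and 277 of 804. In CPM of scaled library size, HL and LL overlapped in RPF for each of the 8 members. The leaf marker sums moved the other way in RPF, and their part in the lower share was not tested. Summed over a group, TOR had the most RPF counts, 472 in HL and 669 in LL, narrowly ahead of RAPTOR1B with 458 and 651. TOR had 109 to 214 per HL library and 184 to 269 per LL library, and RAPTOR1B 127 to 198 and 162 to 277. S6K2 had the fewest in sum, with 6 to 14 per HL library and 12 to 17 per LL library. All 8 passed the filter on low counts in every comparison.

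**Figure D1:**
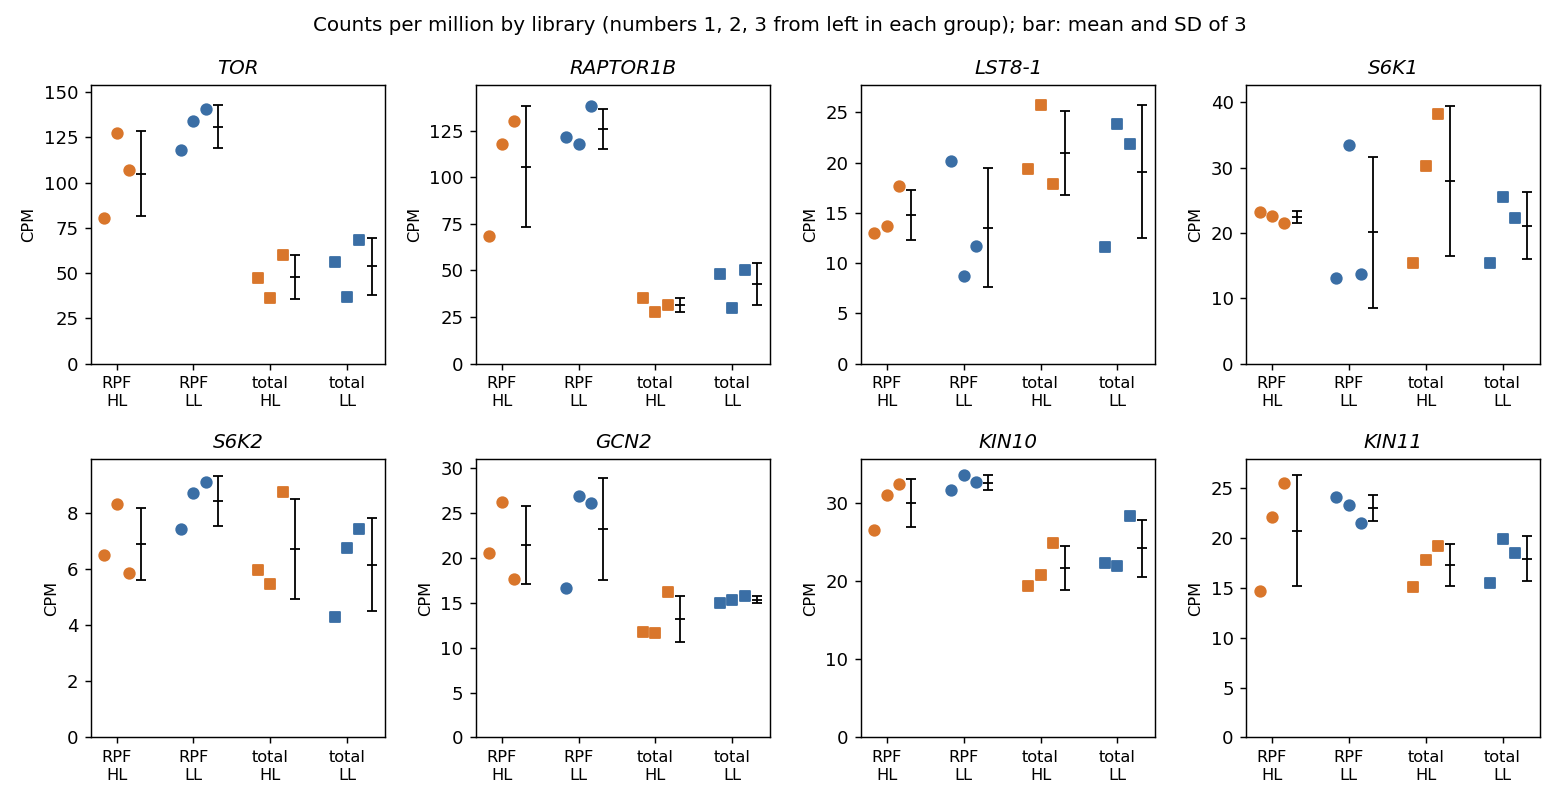
CPM (vertical axis, scaled within RPF and within total RNA, so heights compare within a kind of library) of the 8 kinase genes, each point a library, with the mean and SD of 3 libraries beside each group; circles are RPF, squares total RNA, orange HL and blue LL. In no panel do the HL points of RPF or of total RNA lie all above or all below the LL points of the same kind.

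The first comparison was HL against LL in RPF. No kinase gene gained or lost footprints past the threshold (adjusted p under 0.05, edgeR): 0 of 8 members were called, where 0.223% of all 10759 tested genes were, and 0 of 8 had an unadjusted p under 0.05, where 3.35% of all genes did. With the replicate number as a block 1.82% of all genes passed and still 0 of 8 members. For 0 of 8 members did HL and LL fail to overlap, against 9.1% of all tested genes, 4.63% with HL higher and 4.47% with HL lower. The median log2 change of the members was -0.15, with 2 of 8 positive, and that of all genes was -0.00, with 49.6% positive.

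Within the TOR complex, TOR itself had 80.6, 127 and 107 CPM in RPF HL, against 118, 134 and 141 CPM in RPF LL (numbers 1, 2 and 3). HL was lower than LL in 3 of 3 same-numbered pairs, as it was for 15.1% of all tested genes, but the groups overlapped, since HL library 2 stood above LL library 1. The log2 change was -0.32 ± 0.24 (SE, 95% interval -0.85 to 0.21, adjusted p = 1.00), and with the block -0.34 ± 0.16 (adjusted p = 0.425). RAPTOR1B had 68.7, 118 and 130.3 CPM in RPF HL, against 121, 118 and 138 CPM in RPF LL. Here HL library 1 was low and the pair of number 2 was equal to within rounding, and the log2 change was -0.26 ± 0.27 (SE, 95% interval -0.84 to 0.32); it was -0.021 without RPF HL 1 and -0.43 without RPF HL 3. LST8-1 had 13.0, 13.7 and 17.6 CPM in RPF HL, against 20.2, 8.73 and 11.7 CPM in RPF LL, so that library 1 went down with light and libraries 2 and 3 went up. Its log2 change was 0.06 ± 0.37 (SE).

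The S6 kinases act just below TOR. S6K1 had 23.3, 22.6 and 21.6 CPM in RPF HL, against 13.2, 33.5 and 13.7 CPM in RPF LL. The HL libraries were close to each other and lay inside the wide range of LL, and the log2 change was 0.20 ± 0.37 (SE, 95% interval -0.59 to 0.99). S6K2 had 6.49, 8.34 and 5.88 CPM in RPF HL, against 7.45, 8.73 and 9.13 CPM in RPF LL. It was lower in HL in 3 of 3 pairs, with a log2 change of -0.26 ± 0.39 (SE, 95% interval -1.10 to 0.58) from 32 counts in all of HL and 43 in all of LL. A difference smaller than that interval was not detectable at this depth.

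KIN10, the catalytic subunit that carries most SnRK1 activity, had 26.5, 31.0 and 32.3 CPM in RPF HL, against 31.6, 33.5 and 32.6 CPM in RPF LL. The values lay close together in both lights, and the log2 change was -0.13 ± 0.24 (SE, 95% interval -0.64 to 0.39). KIN11 had 14.6, 22.0 and 25.5 CPM in RPF HL, against 24.1, 23.3 and 21.5 CPM in RPF LL, with a log2 change of -0.18 ± 0.29 (SE). GCN2 had 20.6, 26.2 and 17.6 CPM in RPF HL, against 16.7, 26.9 and 26.1 CPM in RPF LL, with a log2 change of -0.08 ± 0.30 (SE, 95% interval -0.73 to 0.57). KIN10 was lower in HL in 3 of 3 pairs, with overlapping groups, and for KIN11 and GCN2 the HL range covered most or all of the LL range.

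Total RNA was compared in the same way to ask whether transcript levels had moved. Again 0 of 8 members passed, where 0.236% of all 15701 tested genes did (0.0127% lower in HL), and 0 of 8 had an unadjusted p under 0.05, where 2.36% of all genes did. With the block 0 of 8 members passed and 0.828% of all genes. HL and LL overlapped for all 8 members, while 3.61% of all genes had HL wholly above LL and 3.15% wholly below. The median log2 change of the members was -0.12, with 3 of 8 positive, against -0.01 and 48.9% positive over all genes.

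RAPTOR1B had the change farthest from 0 in total RNA: 35.3, 27.7 and 31.3 CPM in HL, against 48.0, 29.7 and 50.2 CPM in LL. HL was lower in 3 of 3 pairs, as for 14.7% of all tested genes, and the groups overlapped through LL library 2. The log2 change was -0.43 ± 0.25 (SE, 95% interval -0.99 to 0.12, adjusted p = 1.00), and with the block -0.41 ± 0.15 (adjusted p = 0.526). S6K1 moved the other way, with 15.5, 30.3 and 38.2 CPM in HL, against 15.4, 25.5 and 22.4 CPM in LL. HL was higher in 3 of 3 pairs, in pair 1 by a log2 difference of 0.0031, and the change was 0.37 ± 0.33 (SE, 95% interval -0.34 to 1.09, adjusted p = 1.00), with the block 0.39 ± 0.17 (adjusted p = 0.630). Without total RNA HL 3 it was 0.087, and without total RNA HL 1 it was 0.68.

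TOR transcript had 47.5, 36.1 and 60.2 CPM in total RNA HL, against 56.2, 37.0 and 68.3 CPM in total RNA LL, lower in 3 of 3 pairs by a log2 change of -0.17 ± 0.29 (SE). KIN10 was likewise lower in 3 of 3 pairs, with 19.3, 20.8 and 24.8 CPM in HL, against 22.3, 21.8 and 28.3 CPM in LL, a change of -0.17 ± 0.22 (SE). In both genes library 3 was the highest of each light. GCN2 had 11.8, 11.6 and 16.2 CPM in HL, against 15.0, 15.3 and 15.7 CPM in LL, with a change of -0.23 ± 0.22 (SE, 95% interval -0.70 to 0.25). LST8-1, S6K2 and KIN11 had changes of 0.09 ± 0.28, 0.05 ± 0.28 and -0.07 ± 0.21 (SE), each with HL and LL values mixed.

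**Figure D2:**
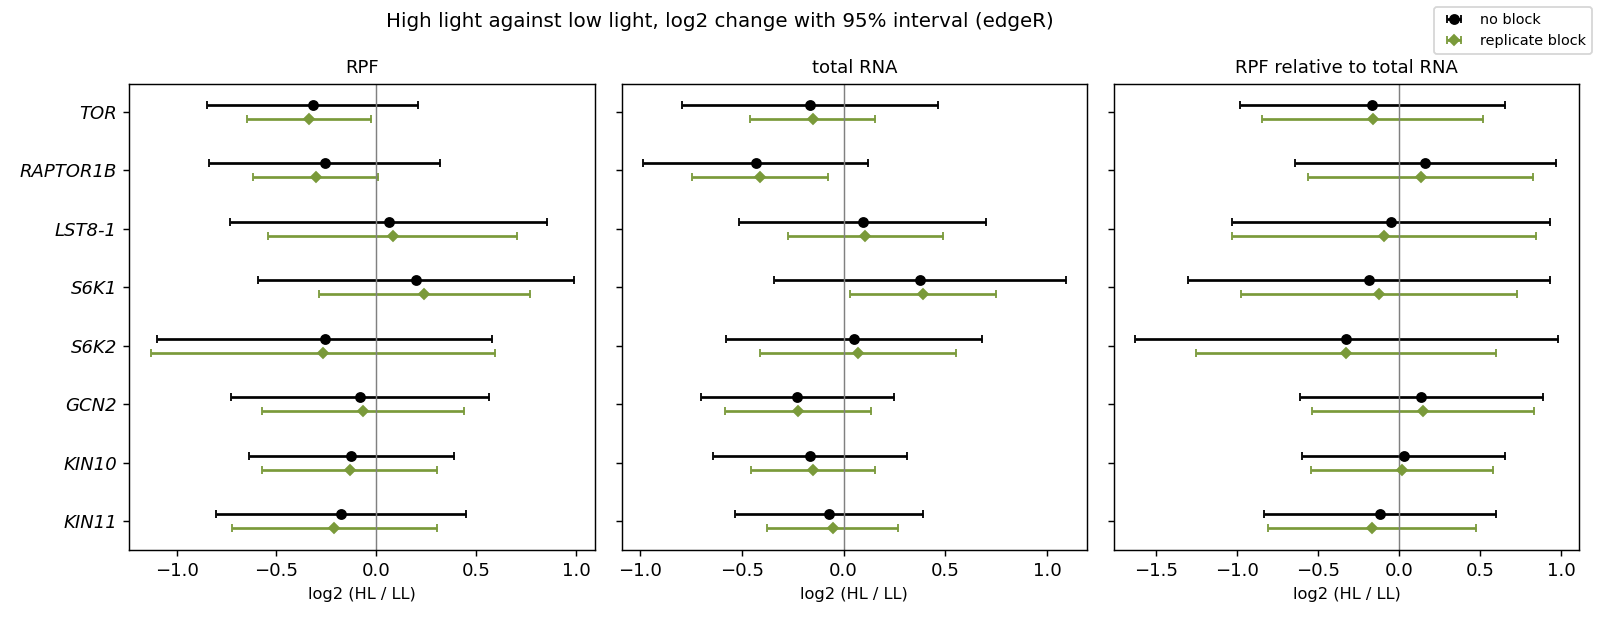
Log2 change of HL over LL (horizontal axis) of each kinase gene in RPF, in total RNA and in RPF relative to total RNA, with 95% intervals from edgeR, without (black circles) and with (green diamonds) the replicate number as a block. Without the block every interval of the 3 panels includes 0; with it those of TOR in RPF and of RAPTOR1B and S6K1 in total RNA do not, and their adjusted p are 0.425, 0.526 and 0.630.

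The change of RPF relative to total RNA, here called translational efficiency, was fitted as a light effect that may differ by library type. No member passed, and neither did any of 12789 genes (0%), with or without the block, although 2 genes passed when low counts were not filtered; 0 of 8 members and 1.4% of all genes had an unadjusted p under 0.05. DESeq2 and limma-voom called 0 of 8 members as well. S6K2 had the change farthest from 0, at -0.33 ± 0.62 (SE, 95% interval -1.63 to 0.98), followed by S6K1 at -0.19 ± 0.53 and TOR at -0.17 ± 0.39. RAPTOR1B was at 0.16 ± 0.38, GCN2 at 0.14 ± 0.35 and KIN10 at 0.03 ± 0.30, the narrowest interval of the 8 (-0.60 to 0.66). KIN11 and LST8-1 were at -0.12 ± 0.34 and -0.05 ± 0.46. Changes of the size seen for these kinases are thus inside the error of 3 libraries a group.

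In footprints per transcript the members ranged from -1.03 to 1.25 on the log2 scale in HL and from -0.97 to 1.09 in LL, a wider spread than any of their changes between lights. RPF was set against total RNA in each light over all 12 libraries, so that 0 stands near the average gene and a positive value means relatively more footprints. RAPTOR1B carried more footprints for its transcript level than the average gene in both lights, and was the 1 of 8 members called in each. In HL 6.4% of all 12789 tested genes were called, 4.7% higher and 1.7% lower. In LL 8.3% were called, 4.95% higher and 3.35% lower. With the replicate block 2 members were called in each light, and of all genes 8.96% were higher and 5.26% lower in HL, and 9.09% higher and 7.12% lower in LL. The HL and LL contrasts come from different libraries but from 1 fit, which shares the estimate of the spread.

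The ratio of RPF to total RNA of RAPTOR1B in the same-numbered pairs was 1.38, 2.98 and 3.04 in HL, and 1.79, 2.79 and 2.04 in LL. All 6 ratios were above 1, and the RPF and total RNA libraries did not overlap in either light, as for 30.1% of all genes in HL (15.4% with RPF higher) and 26.6% in LL (13.4%). The log2 ratio was 1.25 ± 0.27 in HL (SE, a fold of 2.39, adjusted p = 0.0114) and 1.09 ± 0.27 in LL (SE, a fold of 2.14, adjusted p = 0.0211). In HL the call was lost without RPF HL 2 (1.16, adjusted p = 0.0653), total RNA HL 2 (1.19, 0.0787), RPF HL 3 (1.12, 0.0516) or total RNA HL 3 (1.23, 0.0514). In LL it was lost without total RNA LL 2 (0.88, adjusted p = 0.127) or RPF LL 3 (1.02, 0.0777).

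TOR had ratios of 1.20, 2.47 and 1.29 in HL, and 1.49, 2.54 and 1.53 in LL, all above 1 and highest in number 2 of each light. In LL its RPF values were all above those of total RNA, as for 13.4% of all genes, and in HL they overlapped. Its log2 ratio was 0.65 ± 0.27 in HL (SE, adjusted p = 0.155) and 0.81 ± 0.27 in LL (SE, adjusted p = 0.0707). With the replicate block the adjusted p was 0.0584 in HL and 0.0193 in LL, where TOR then passed, and DESeq2 called it in LL too (0.83, adjusted p = 0.0338). LST8-1, the partner of TOR with the shortest gene of the 8, lay on the other side, with ratios of 0.476, 0.371 and 0.718 in HL, and 1.23, 0.257 and 0.397 in LL. In HL the RPF values of LST8-1 were all below those of total RNA, as for 14.7% of all genes, and in LL library 1 stood apart from libraries 2 and 3. The log2 ratio was -1.03 ± 0.33 in HL (SE, adjusted p = 0.0720) and -0.97 ± 0.33 in LL (SE, adjusted p = 0.0756). With the block it passed in HL (-1.02, adjusted p = 0.0343) and missed in LL (-0.93, 0.0506). Without the 4 number 1 libraries, of which the RPF ones hold the excess of rRNA, LST8-1 passed in LL (-1.61, adjusted p = 0.0155), as it did without RPF LL 1 (-1.41, 0.0380) or total RNA LL 1 (-1.19, 0.0292). The 3 members of the TOR complex thus had values on both sides of the average gene.

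S6K1 had ratios of 1.07, 0.522 and 0.412 in HL, and 0.604, 0.924 and 0.454 in LL. Its log2 ratio was -0.79 ± 0.37 in HL (SE, adjusted p = 0.207) and -0.61 ± 0.38 in LL (SE, adjusted p = 0.340). S6K2 was at -0.42 ± 0.32 in HL and -0.10 ± 0.31 in LL. GCN2, with ratios between 0.786 and 1.58 over the 6 pairs, was at 0.24 ± 0.25 in HL and 0.10 ± 0.25 in LL. KIN10 kept closest to the average gene, with ratios between 0.855 and 1.08 over the 6 pairs and log2 ratios of -0.03 ± 0.20 in HL and -0.05 ± 0.20 in LL, and KIN11 was at -0.25 ± 0.24 and -0.14 ± 0.23. None of these 5 passed with or without the block. The signs of S6K2, KIN10 and KIN11 depend on the scaling: with TMM factors taken within each kind of library they were 0.01, 0.41 and 0.18 in HL and 0.34, 0.39 and 0.30 in LL. That scaling moves the median of all genes by 0.44 on the log2 scale in each light, and makes 97.3% of called genes in HL and 94.4% in LL higher, instead of 73.4% and 59.7%.

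**Figure D3:**
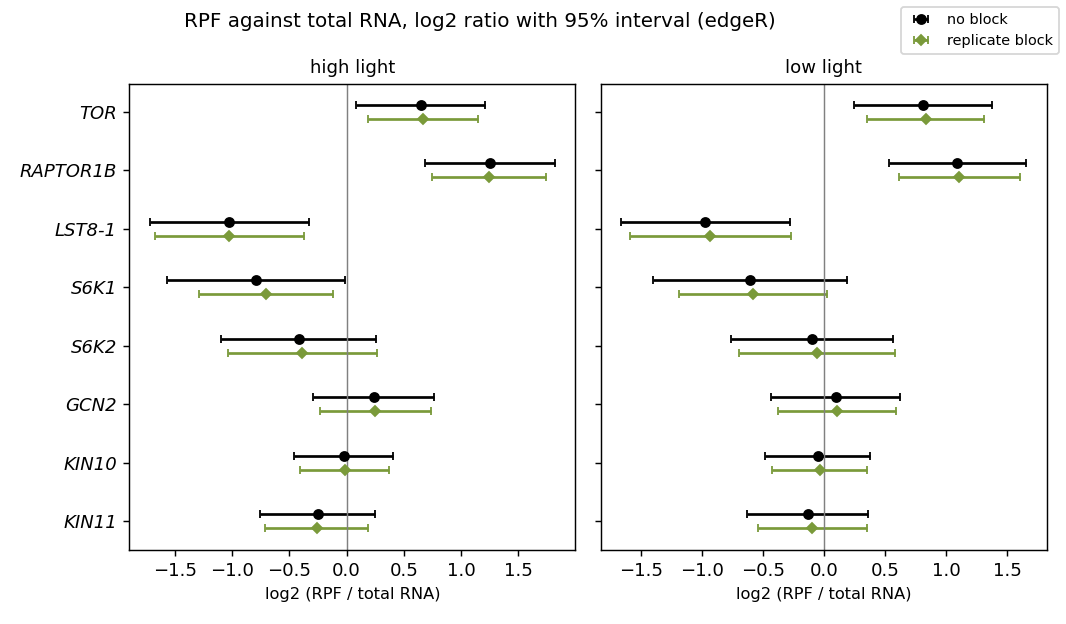
Log2 ratio of RPF to total RNA (horizontal axis) of each kinase gene in HL and in LL, with 95% intervals from edgeR, without (black circles) and with (green diamonds) the replicate block. RAPTOR1B lies at 1.25 in HL and 1.09 in LL, LST8-1 at -1.03 and -0.97, and KIN10 next to 0 in both.

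The ratio of RPF to total RNA moved with the length of the gene over all genes, and the members followed that order in part. In HL the median log2 ratio was -0.29 for 4270 genes that span under 2 kb, -0.02 for 6318 genes of 2 to 4 kb, 0.24 for 1968 genes of 4 to 8 kb and 0.66 for 233 genes of 8 kb and over. In LL these medians were -0.30, -0.02, 0.28 and 0.75. Among the longest genes 22.3% were called higher in HL and 29.6% in LL, and 0% lower in either. TOR, RAPTOR1B and GCN2 belong to that class, and they are the 3 members with positive ratios. The spans include introns and untranslated regions, and the part of gene length in these results was not tested.

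Set against genes of its own length class, a comparison chosen after the values were seen and given as a description, RAPTOR1B stood 0.60 above the class median in HL, at the 89.1 percentile, and 0.34 above it in LL, at the 80.0 percentile. TOR stood at the middle of its class, at the 49.6 percentile in HL and the 58.2 percentile in LL. GCN2 was low for so long a gene, 0.42 below the class median in HL (11.4 percentile) and 0.65 below it in LL (3.65 percentile). LST8-1 was low among genes of 2 to 4 kb, at the 2.76 percentile in HL and the 3.55 percentile in LL, and S6K1 was at the 6.26 and 12.2 percentiles. KIN10 was at the 49.2 percentile in HL and the 47.3 percentile in LL. GCN2 was thus low only against its own length class, as LST8-1 and S6K1 were low against theirs. Its plain log2 ratio was 0.24 ± 0.25 in HL and 0.10 ± 0.25 in LL (SE), called in neither.

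**Figure D4:**
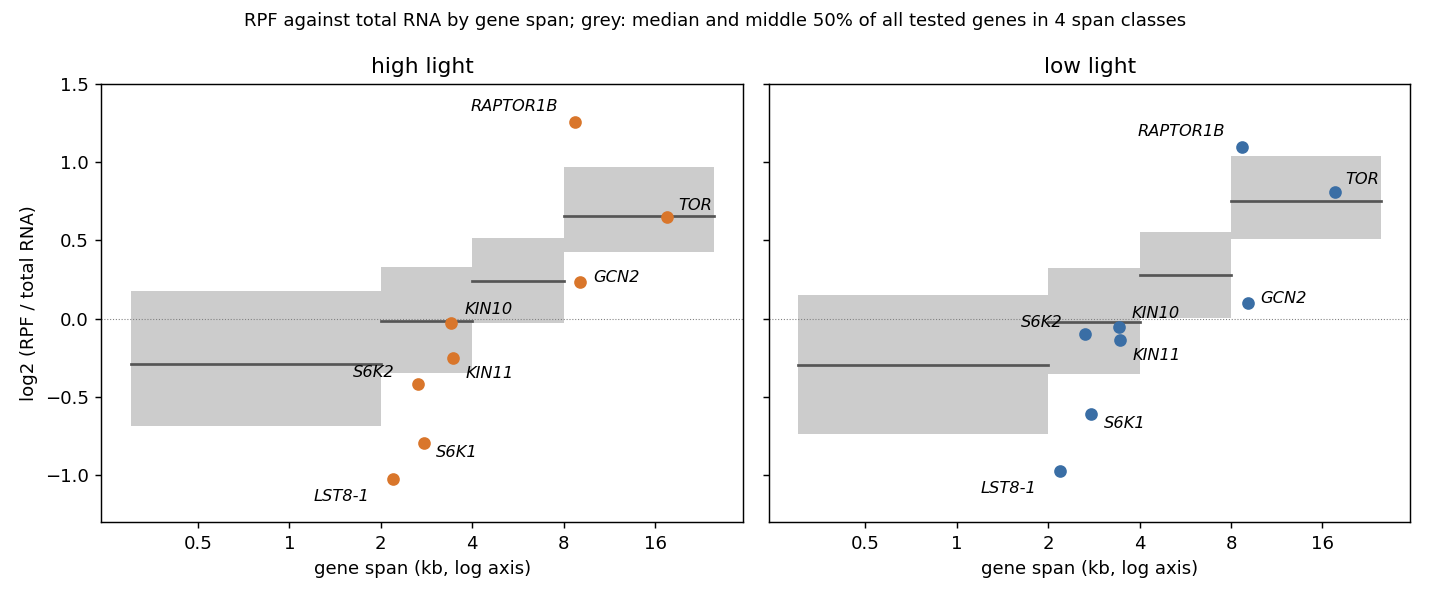
Log2 ratio of RPF to total RNA (vertical axis) against gene span in kb (log axis) of the 8 kinase genes in HL and in LL, over the median (grey line) and middle 50% (grey band) of all tested genes in 4 span classes; the outer classes are drawn to 0.3 and 25 kb. RAPTOR1B lies above the band of its class in both lights, GCN2, S6K1 and LST8-1 below theirs, S6K2 below its band in HL, and TOR near its class median of 0.66 in HL and 0.75 in LL.

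Levels between genes were compared as CPM per kb of gene span, with all 12 libraries on 1 scale. The span includes introns and untranslated regions, and levels per coding length were not run. By mean level per kb in RPF, RAPTOR1B was the highest of the kinase genes in both lights and GCN2 the lowest. In RPF HL the order was RAPTOR1B (10.1 ± 3.15, SD, n = 3), KIN10 (7.33 ± 0.77), S6K1 (6.80 ± 0.26), LST8-1 (5.64 ± 0.95), KIN11 (5.02 ± 1.35), TOR (5.00 ± 1.14), S6K2 (2.18 ± 0.41) and GCN2 (1.98 ± 0.41). Of the 7 neighbouring pairs in that order only TOR and S6K2 did not overlap. In RPF LL the order was RAPTOR1B (12.1 ± 1.06, SD, n = 3), KIN10 (7.99 ± 0.29), TOR (6.25 ± 0.60), S6K1 (6.11 ± 3.55), KIN11 (5.58 ± 0.30), LST8-1 (5.17 ± 2.22), S6K2 (2.67 ± 0.29) and GCN2 (2.15 ± 0.54). There the first 3 were separate from each other, TOR to LST8-1 overlapped, and LST8-1 and S6K2 did not. S6K2 and GCN2 overlapped.

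In total RNA S6K1 and LST8-1 led instead, while S6K2, about as short, stayed next to last. In total RNA HL the order was S6K1 (11.9 ± 4.76, SD, n = 3), LST8-1 (11.3 ± 2.53), KIN10 (7.43 ± 0.85), KIN11 (5.88 ± 0.67), RAPTOR1B (4.23 ± 0.47), TOR (3.19 ± 0.73), S6K2 (2.97 ± 0.71) and GCN2 (1.70 ± 0.30). In total RNA LL it was LST8-1 (10.2 ± 3.57, SD, n = 3), S6K1 (8.92 ± 2.26), KIN10 (8.24 ± 0.99), KIN11 (6.07 ± 0.82), RAPTOR1B (5.69 ± 1.39), TOR (3.57 ± 0.95), S6K2 (2.71 ± 0.71) and GCN2 (1.98 ± 0.04). S6K1 and LST8-1 overlapped in both lights, while KIN10 and KIN11 were separate in both. RAPTOR1B came after 4 other members in total RNA and led in RPF. Against all genes detected in the group, RAPTOR1B was at the 83.2 percentile per kb in RPF HL and the 86.3 in RPF LL, and GCN2 at the 41.9 and 44.1. S6K2 was at the 44.3 in RPF HL and the 49.8 in RPF LL. The remaining members lay between S6K2 and RAPTOR1B, at the 67.4 (TOR in RPF HL) or above.

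**Figure D5:**
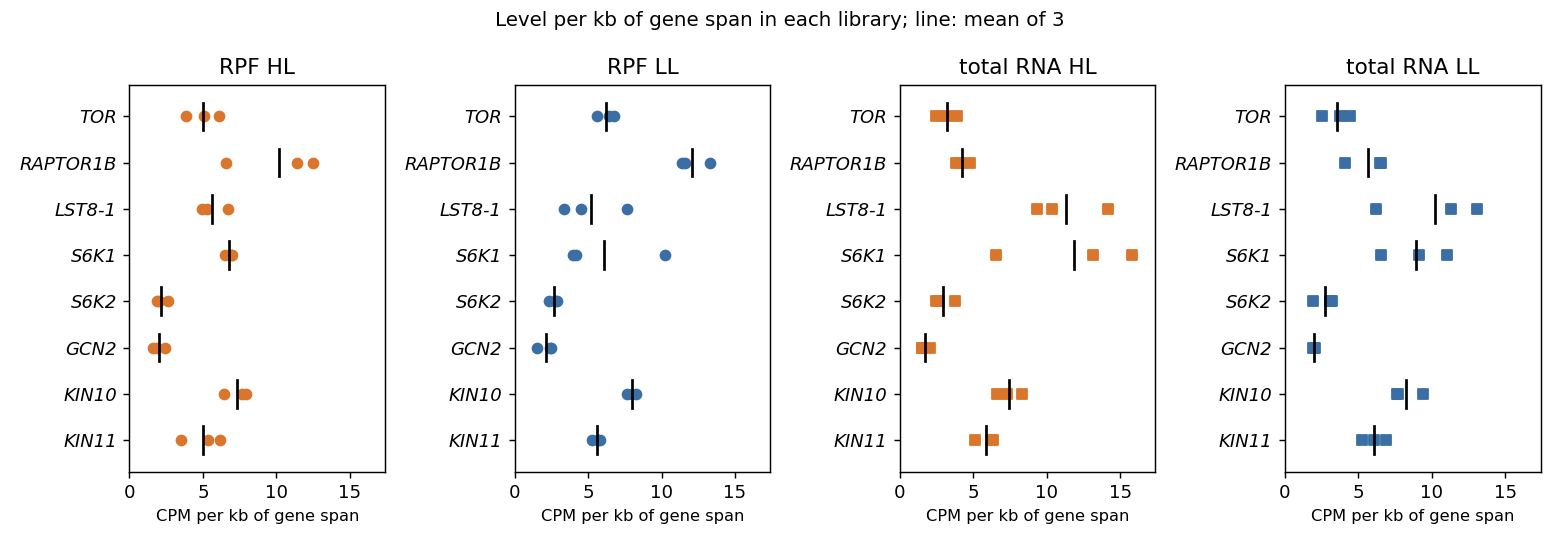
Level of each kinase gene as CPM per kb of gene span (horizontal axis, 12 libraries on 1 scale) in RPF HL, RPF LL, total RNA HL and total RNA LL; points are libraries and lines the mean of 3. RAPTOR1B leads in RPF at 10.1 (HL) and 12.1 (LL), and S6K1 and LST8-1 lead in total RNA.

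Several of the kinase genes have a close copy, and the same copy gave most of the counts in both lights and both kinds of library. S6K1 gave 76.6% ± 3.07 of the counts of the S6K pair in RPF HL and 67.7% ± 10.2 in RPF LL, and 79.4% ± 6.48 in total RNA HL and 77.4% ± 2.15 in total RNA LL (SD, n = 3). KIN10 gave 59.6% ± 4.39 of the KIN10 and KIN11 counts in RPF HL and 58.6% ± 1.80 in RPF LL, and 55.6% ± 1.38 in total RNA HL and 57.3% ± 4.32 in total RNA LL (SD, n = 3). RAPTOR1B gave 89.0% ± 2.86 of the counts it shares with RAPTOR1A in RPF HL and 88.6% ± 4.89 in RPF LL, and 91.2% ± 3.22 in total RNA HL and 92.5% ± 2.49 in total RNA LL (SD, n = 3). For each of the 3 pairs the HL and LL ranges overlapped in RPF and in total RNA. LST8-2, the copy of LST8-1, had 1 count in RPF LL and 0 in the other 3 groups, against 65 counts of LST8-1 in RPF HL, 76 in RPF LL, 670 in total RNA HL and 449 in total RNA LL. How fragments shared by near-identical copies were counted is not given in the sources used here, so a split within a pair is uncertain.

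For TOR and KIN10 the genes that varied most alike over the 12 libraries were sought, after the mean of RPF and of total RNA was taken off, among 4543 genes with at least 20 counts in every library. TOR varied most like AT1G48090 (Pearson r = 0.98), LON2 (0.95), a protease, and TIC110 (0.94), of the plastid import machinery. KIN10 varied most like GLDP2 (0.91), a glycine decarboxylase P protein, emb1441 (0.91) and ORP3C (0.90). GCN2 fell to 18 counts in 1 library and was left out. The libraries share depth and number, and these values are descriptions of 12 points.

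Other genes of the same pathways were taken from 4 lists. Of the TOR and S6K list, partners, regulators and targets, 20 of 24 genes were tested in RPF and 23 in total RNA; 0 passed between HL and LL in either, with or without the block. The median log2 change of the list was 0.12 in RPF with 14 of 20 positive, and -0.02 in total RNA with 11 of 23 positive. RPS6A, whose protein S6K phosphorylates, had a change of 0.24 ± 0.22 in RPF and 0.21 ± 0.26 in total RNA (SE), and RPS6B had 0.30 ± 0.25 and -0.08 ± 0.24. The smallest p of the list in RPF belonged to AT3G18770, at 0.83 ± 0.41 (SE, adjusted p = 1.00).

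Between RPF and total RNA the TOR list had called genes on both sides. In HL 3 of 21 tested genes were called higher and 0 lower, and in LL 2 were higher and 1 lower; with the block 4 were higher and 2 lower in HL, and 2 and 4 in LL. Of all genes 4.7% were higher and 1.7% lower in HL and 4.95% and 3.35% in LL, and with the block 8.96% and 5.26% in HL and 9.09% and 7.12% in LL. RAPTOR1A, the rarer RAPTOR copy, had 7.58, 19.6 and 12.7 CPM in RPF HL, against 2.04, 3.73 and 3.09 CPM in total RNA HL, each scaled within its kind. Its log2 ratio was 1.68 ± 0.44 in HL (SE, adjusted p = 0.0316) and 1.83 ± 0.44 in LL (SE, adjusted p = 0.0195), so both RAPTOR genes were high. LARP1a, an RNA-binding protein known as a TOR target, had log2 ratios of 0.97 ± 0.22 in HL (SE, adjusted p = 0.0150) and 1.03 ± 0.22 in LL (SE, adjusted p = 0.00986). AT3G18770 had 1.24 ± 0.35 in HL (SE, adjusted p = 0.0471), and RPS6B had -1.00 ± 0.26 in LL (SE, adjusted p = 0.0266) and -0.63 ± 0.25 in HL (SE, adjusted p = 0.144). RPS6A was at -0.71 ± 0.25 in HL and -0.72 ± 0.25 in LL (SE), and with the block passed in both (adjusted p = 0.0386 and 0.0394). RAPTOR1A and LARP1a span 7.67 and 5.36 kb, RPS6A and RPS6B 1.66 and 1.76 kb, and the class medians for such lengths were 0.24 and -0.29 in HL and 0.28 and -0.30 in LL.

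These calls were not all stable over 19 alternative fits each. In HL, RAPTOR1A lost its call in 5, without total RNA HL 1, 2 or 3 or RPF HL 2 or 3 (adjusted p = 0.0686 to 0.223), and in LL in 3, without total RNA LL 2 or 3 or RPF LL 3 (0.0599 to 0.113). LARP1a lost it in HL in 4, without total RNA HL 1, 2 or 3 or RPF HL 2 (0.0543 to 0.101), and in LL in 2, without total RNA LL 2 (0.0582) or without all number 1 libraries (0.0530). RPS6B lost it in LL in 7 (0.0529 to 0.203): without any 1 of the LL libraries other than total RNA LL 3, without the number 1 libraries, and with TMM within each kind. AT3G18770 lost it in 10 (0.0522 to 0.189), among them without any 1 of the HL libraries other than RPF HL 1.

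The SnRK1 list, the other subunits, 2 upstream kinases and 2 linked proteins, had 6 of 10 genes tested in RPF and 7 in total RNA, and 0 passed between HL and LL. The median was -0.13 in RPF with 2 of 6 positive and -0.36 in total RNA with 1 of 7 positive. KINbeta2, a scaffold subunit, was at 0.54 ± 0.32 in RPF (SE) and had the smallest p of the list there. Between RPF and total RNA 0 of 7 passed, where 6.4% of all genes did in HL and 8.3% in LL. With the block KINbeta1 passed in HL (0.88, adjusted p = 0.0203) and in LL (0.75, adjusted p = 0.0366), and KINbeta3 in LL (-1.42, adjusted p = 0.0349). Of all genes 14.2% passed with the block in HL and 16.2% in LL. KINbeta3 had only 4, 5 and 7 RPF counts in LL and failed the count filter between HL and LL in RPF. Without the block it was at -1.40 in LL and -0.52 in HL. In LL the scaffold subunits thus lay on both sides of KIN10 and KIN11, with few counts behind KINbeta3.

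Transcripts that are used as readouts of SnRK1 activity, because SnRK1 raises them in starved cells, were mostly lower in HL, but none passed by edgeR without the block. In RPF 1 of 14 had a positive change and the median log2 change was -0.50, against -0.00 over all genes with 49.6% positive, and 2 of 14 had an unadjusted p under 0.05, against 3.35% of all genes. In total RNA 1 of 14 was positive, the median was -0.61, against -0.01 over all genes with 48.9% positive, and 6 of 14 had an unadjusted p under 0.05, against 2.36% of all genes. In RPF 14, 11 and 8 of the 14 were lower in HL in pairs 1, 2 and 3, and in total RNA 13, 12 and 11. With the block 3 of 14 fell in RPF and 3 in total RNA, against 0.428% and 0.287% of all genes lower by that fit. That carbon starvation genes were lower in HL was known from these data when the list was written, so the list gives no separate support for it.

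AT3G15450 had the smallest p of the list in both kinds of library, with 185, 168 and 222 CPM in RPF HL, against 453, 237 and 415 CPM in RPF LL. In total RNA it had 134, 164 and 178 CPM in HL, against 419.6, 237 and 469 CPM in LL. The groups did not overlap in either, as for 9.1% of genes in RPF and 6.76% in total RNA. The log2 change was -0.94 ± 0.29 in RPF (SE, adjusted p = 0.832; with the block 2.23e-07, by DESeq2 without the block 0.338) and -1.24 ± 0.31 in total RNA (SE, adjusted p = 0.444; with the block 0.0186, by DESeq2 without the block 0.00681). DIN1 and DIN10, both named for their induction in the dark, fell in RPF with the block by 0.89 (adjusted p = 0.00807) and 0.73 (adjusted p = 0.00130). TPS9 and TPS11, of the regulatory class of trehalose-phosphate synthases, fell in total RNA with the block by 0.77 (adjusted p = 0.0347) and 0.77 (adjusted p = 0.0486). Once the number 1 libraries were also left out of the blocked fit, none of these calls held: the log2 change was then -0.70 (adjusted p = 0.0891) and -0.96 (0.144) for AT3G15450 in RPF and total RNA, -0.46 (0.882) for DIN1 and -0.18 (0.929) for DIN10 in RPF, and -0.61 (0.221) for TPS9 and -0.58 (0.297) for TPS11 in total RNA. DESeq2 without the block called none of DIN1 and DIN10 in RPF or TPS9 and TPS11 in total RNA. Between RPF and total RNA 1 of 14 readouts was called in HL, TPS10 at 1.02 ± 0.27 (SE, adjusted p = 0.0356), and 0 in LL. With the block 2 were higher and 2 lower in HL and 0 in LL. Of all genes 4.7% were called higher and 1.7% lower in HL, and 4.95% and 3.35% in LL. With the block these shares were 8.96% and 5.26% in HL, and 9.09% and 7.12% in LL. The TPS10 call was lost without total RNA HL 1, 2 or 3 or RPF HL 2 or 3 (adjusted p = 0.0658 to 0.159).

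The GCN2 list holds the GCN2 activators GCN1 and GCN20, the eIF2 subunits and the factors that reload and release eIF2. Of 16 genes 13 were tested in each kind of library and 0 passed between HL and LL, with or without the block. The median was -0.15 in RPF with 5 of 13 positive and 0.02 in total RNA with 7 of 13 positive. EIF2 ALPHA (AT5G05470) and AT2G40290 both encode the alpha subunit that GCN2 phosphorylates. EIF2 ALPHA had 8.12, 8.34 and 10.8 CPM in RPF HL, against 6.14, 5.82 and 9.13 CPM in RPF LL, with a log2 change of 0.35 ± 0.39 (SE). It was higher in HL in each pair, as were 16.2% of all tested genes, and overlapped through LL library 3. Its change in total RNA was 0.13 ± 0.25 (SE). AT2G40290 had higher levels, 13.5, 22.6 and 22.5 CPM in RPF HL, against 15.8, 30.6 and 19.6 CPM in RPF LL. It was at -0.16 ± 0.34 in RPF and 0.13 ± 0.22 in total RNA (SE).

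Against total RNA, 1 of 13 genes of the GCN2 list was called higher in HL and 3 in LL, with 0 lower in either; with the block 2 were higher in HL and 3 in LL. Of all genes 4.7% were higher in HL and 4.95% in LL, and with the block 8.96% and 9.09%. AT5G38640 had 15.7, 20.8 and 14.7 CPM in RPF HL, against 4.98, 3.54 and 4.45 CPM in total RNA HL, each scaled within its kind. Its log2 ratio was 1.5 ± 0.28 in HL (SE, adjusted p = 0.00509) and 1.83 ± 0.28 in LL (SE, adjusted p = 0.00149), and the call held in 19 of 19 alternative fits in each light. This gene spans 3.05 kb, where the class median is -0.02. ILA, the Arabidopsis GCN1, had 0.82 ± 0.24 in HL (SE, adjusted p = 0.0554; with the block 0.0195) and 1.03 ± 0.24 in LL (SE, adjusted p = 0.0187), at a span of 18.5 kb with class medians of 0.66 and 0.75. AT1G48970 had 1.00 ± 0.29 in LL (SE, adjusted p = 0.0453). In LL the ILA call was lost in 3 of 19 alternative fits, without RPF LL 2 (adjusted p = 0.0588), total RNA LL 2 (0.116) or RPF LL 3 (0.0601). That of AT1G48970 was lost in 10 of 19 (0.0540 to 0.141), without a filter, without the number 1 libraries, or without any 1 of RPF HL 1, total RNA HL 1, 2 or 3, RPF LL 2 or 3, or total RNA LL 2 or 3.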

How the data were processed

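The deposited values are raw counts per gene, 1 file per library, made by the authors with featureCounts 1.5.0-p1, per the file headers, on Bowtie2 (RPF) and subjunc (total RNA) alignments, counted by strand over 1 span per TAIR10 gene. The submitters' processing notes name cutadapt 1.9.1, FastQC 0.11.5, Bowtie2 2.2.9 and Subread 1.4.5. Length equalled the span for all 28775 genes.

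Names came from a RefSeq gene table (28009 genes matched by locus tag), and genes without a symbol there are given by identifier. Protein-coding genes were tested with edgeR 4.0.16 (R 4.3.3): quasi-likelihood, filterByExpr, TMM, Benjamini-Hochberg over all tested genes, threshold 0.05. TMM was computed within the libraries of a light comparison, within each kind for the interaction, and over all 12 libraries for RPF against total RNA. SE and 95% intervals follow from p and the degrees of freedom. CPM use TMM-scaled library sizes. Shares of counts are given as mean and SD of 3 libraries; precision is limited by counts of 6 to 629 per member and library. Alternatives used DESeq2 1.42.0 and limma-voom 3.58.1; figures used matplotlib 3.10.9 in Python 3.11.15. Each fit was also run on simulated counts, with a fixed spread, independent libraries and changes placed in well-counted genes. That run does not test the fits on low counts or on deviations shared by same-numbered libraries.

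Numbers 1 to 3 pair the libraries, since files of a number share an experiment name and same-numbered HL and LL libraries deviated together (r = 0.48, 0.44 and 0.30 in RPF; 0.48, 0.56 and 0.42 in total RNA; 0.14 to 0.31 between RPF and total RNA). The labels call the RPF replicates biological without saying what was separate, so p-values measure the spread between these samples. Replicates differed by more than sampling noise (chi-square per degree of freedom 6.05 to 55.6).

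The members, lists, tests and rule for named genes were chosen with earlier results of these data known. The rule names all 8 members, list genes past the threshold (at most 3 a list), else the list gene with the smallest p, the RPS6 and eIF2 alpha genes, and the 3 genes most like TOR, GCN2 and KIN10. KINbeta1, KINbeta3, DIN1, DIN10, TPS9 and TPS11 were named for their calls with the block, after their values were seen.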

Additional observations from a re-analysis of the deposited data

How the results depend on the processing

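Between HL and LL, 0 of 8 kinase genes passed in RPF, in total RNA or in the interaction under every setting run (112, 112 and 152 member values), so the low depth and 3 libraries a group limit these statements to the intervals given. The replicate block changed no other member call than those given: with it, 2 members passed between RPF and total RNA in each light. Of all genes 14.2% passed with the block in HL and 16.2% in LL. In LL 2 members also passed by DESeq2, without a filter, without the number 1 libraries and with TMM within each kind. In HL 2 passed without a filter and with TMM within each kind. Over the settings that left out no single library, 838 to 2673 genes passed in LL and 697 to 2654 in HL. TMM within each kind gave the highest of these counts, out of 12789 genes tested. Leaving out each library in turn gave 0 to 2 members in LL and 0 to 1 in HL, and 249 to 1108 and 246 to 865 of all genes. Over all genes 24 passed in RPF, against 196 with the block, 38 by DESeq2, 46 without a filter, 5 with all genes fitted, 55 when the blocked fit also left out the number 1 libraries, and 7 to 21 with 1 library left out (7 without RPF LL 2, RPF LL 3 or RPF HL 3). In total RNA 37 passed, against 130 with the block, 64 by DESeq2, 58 without a filter, 22 without the number 1 libraries, 125 with both changes, and 14 without total RNA LL 3. Between RPF and total RNA 819 passed in HL, against 1819 with the block, 1296 without a filter, 2654 with TMM within each kind and as few as 246 without total RNA HL 2, and 1061 in LL, against 2072, 2673 with TMM within each kind and as few as 249 without total RNA LL 2.

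Some signs turned. Without the number 1 libraries S6K1 was at -0.076 (with the block -0.079) and KIN11 at 0.078 (0.076) in RPF, LST8-1 at -0.057 (-0.071) and S6K2 at -0.0011 (-0.025) in total RNA, and LST8-1 at 0.64, GCN2 at -0.089 and KIN11 at 0.12 in the interaction. By limma-voom S6K2 was at -0.026 in total RNA and S6K1 at 0.069 in the interaction. Against total RNA, TMM within each kind gave S6K2 0.013, KIN10 0.41 and KIN11 0.18 in HL, and S6K2 0.34, KIN10 0.39 and KIN11 0.30 in LL, and KIN10 was at 0.0067 in HL without the number 1 libraries. With 1 library left out, RPF changes ranged from -0.15 to 0.50 for LST8-1, -0.050 to 0.75 for S6K1, -0.29 to 0.038 for GCN2 and -0.33 to 0.037 for KIN11. Total RNA changes ranged from -0.38 to 0.054 for TOR, -0.13 to 0.27 for LST8-1, -0.17 to 0.19 for S6K2 and -0.16 to 0.030 for KIN11. In the interaction they ranged from -0.38 to 0.042 for TOR, -0.0094 to 0.41 for RAPTOR1B, -0.26 to 0.40 for LST8-1, -0.49 to 0.37 for S6K1, -0.068 to 0.30 for GCN2, -0.10 to 0.13 for KIN10 and -0.27 to 0.10 for KIN11. Against total RNA they ranged from -0.10 to 0.068 for KIN10 in HL, and from -0.24 to 0.025 for S6K2, -0.0071 to 0.31 for GCN2 and -0.13 to 0.057 for KIN10 in LL. The cause was not tested. Changes between lights that kept their sign ranged, with 1 library left out, from -0.49 to -0.16 for TOR, -0.43 to -0.021 for RAPTOR1B, -0.42 to -0.18 for S6K2 and -0.18 to -0.040 for KIN10 in RPF, from -0.65 to -0.28 for RAPTOR1B, 0.087 to 0.68 for S6K1, -0.40 to -0.14 for GCN2 and -0.27 to -0.030 for KIN10 in total RNA, and from -0.50 to -0.11 for S6K2 in the interaction. Of 128 levels per kb under other settings 12 moved by more than 1 SD, and of 48 paralog shares 0. Levels and shares per coding length were not run.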
